A study of Homo sapiens with 30 samples.

Results

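The interval described here is a 115-kb stretch of chromosome 9, chr9:139625001-139740000 in hg19 coordinates, that carries lipocalin genes such as LCN6, LCN8 and LCN10 together with RABL6. Its contacts were read by 4C-seq from 3 viewpoints in the NOTCH1 region, all of which lie centromeric of it. Its members are all restriction fragment ends whose position falls between those coordinates, chosen by position alone and not by their reads. They numbered 314 of 382657 chromosome 9 ends in the tables of the NOTCH1 promoter viewpoint, 346 of 429740 in those of the S2 viewpoint and 347 of 428705 in those of the S4 viewpoint. Counted as the same position with the same fragment start and end, the S2 and S4 tables shared 342 of the interval's ends. On that count the promoter tables shared only 88 with those of S2 and 88 with those of S4. An end at the same position whose fragment has other coordinates counts as not shared, and sharing by position alone was not counted. Differences between the promoter and the other 2 viewpoints are therefore also differences between sets of fragments. The interval began 181.7 kb and ended 296.7 kb from the promoter viewpoint, 239.1 and 354.1 kb from S2, and 101.3 and 216.3 kb from S4.

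The 30 libraries came from K562, a human chronic myelogenous leukemia cell line. The labels describe S2, S4 and S5 as sites of the NOTCH1 locus depleted of CTCF in the mutants, and the 5 genotypes were an S2 mutant, an S4 mutant, an S5 mutant, an S4-S5 mutant changed at both sites, and WT. Each genotype was read from each viewpoint in 2 libraries, which gave 15 groups. The labels call the libraries independent. They do not give the kind of mutation, whether a mutant line is 1 clone, or whether the 2 libraries share a culture or a ligated template, so every p-value below rests on how much these libraries vary, and that variation may be technical. Expression was not measured, and the labelled cell type was not checked against marker genes.

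In 4C-seq, cross-linked chromatin is cut with a restriction enzyme and ligated, and the fragments joined to the viewpoint fragment are amplified and sequenced, so the reads at a fragment end reflect how often that place was ligated to the viewpoint. CTCF is a DNA-binding protein that holds many chromatin loops and domain boundaries in place, and contacts that pass such a boundary are usually less frequent than contacts within it. Lipocalins are small secreted proteins that carry hydrophobic molecules, and LCN6, LCN8 and LCN10 belong to a group known from the epididymis, where they act in sperm maturation. RABL6 encodes a GTPase related to the RAB family, whose members steer membrane traffic. NOTCH1 itself codes for a cell-surface receptor that is often mutated in T-cell leukaemia.

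The first digestion of chromatin used DpnII, which cuts at GATC, so only places with that sequence can form a fragment end. A set list of 7 protein-coding genes from LCN10 to RABL6 was looked up in RefSeq (GRCh38.p14), and is not a full count of that stretch. Their order there is LCN10, LCN6, LCN8, LCN15, TMEM141, CCDC183 and RABL6. All 7 matched an entry of the promoter table, which holds 300 bases around each gene start. GATC stood in 3 of these 7 promoters (LCN6, TMEM141 and RABL6), against 41.7% of 35116 RefSeq promoters of the same length. GATC, CATG and GTAC read the same on both strands. CATG, the sequence cut by NlaIII, stood in 4 of 7 (54.9% of all), and GTAC, the sequence cut by CviQI, stood in 1 of 7 (29.8% of all). These are the enzymes of the second digestion. The core letters CCNCNAGNNGGC of the CTCF motif, searched on both strands, occurred in the promoter of CCDC183 and in no other of the 7, against 3.36% of all promoters. A match is a description of letters and not a bound site. LCN6 and RABL6 are shown because they carry the names of the interval and hold DpnII sites (capitals mark GATC), and CCDC183 because it holds the CTCF core (capitals mark the match). Each is printed along its gene's own strand. In GRCh38.p14 they lie at chr9:136748476-136748775 on the minus strand (LCN6), chr9:136807698-136807997 on the plus strand (RABL6) and chr9:136796088-136796387 on the plus strand (CCDC183).
LCN6 promoter: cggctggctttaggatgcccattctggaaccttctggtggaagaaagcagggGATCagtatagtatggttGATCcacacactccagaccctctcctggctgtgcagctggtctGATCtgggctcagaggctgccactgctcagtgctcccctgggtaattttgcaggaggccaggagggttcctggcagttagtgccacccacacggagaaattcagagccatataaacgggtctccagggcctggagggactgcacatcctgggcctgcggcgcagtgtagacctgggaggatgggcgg
RABL6 promoter: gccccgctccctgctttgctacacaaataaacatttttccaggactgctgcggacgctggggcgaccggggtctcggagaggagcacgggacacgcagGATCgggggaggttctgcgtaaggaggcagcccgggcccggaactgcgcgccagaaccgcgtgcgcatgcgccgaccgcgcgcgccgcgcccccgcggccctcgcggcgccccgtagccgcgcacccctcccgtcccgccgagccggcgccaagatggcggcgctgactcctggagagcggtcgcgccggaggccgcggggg
CCDC183 promoter: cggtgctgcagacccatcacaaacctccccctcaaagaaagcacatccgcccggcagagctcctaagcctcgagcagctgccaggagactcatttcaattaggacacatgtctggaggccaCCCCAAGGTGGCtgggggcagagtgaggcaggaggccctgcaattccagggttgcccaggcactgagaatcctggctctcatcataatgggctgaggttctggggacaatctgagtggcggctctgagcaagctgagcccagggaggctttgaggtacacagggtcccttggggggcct
The tables use hg19 and these sequences GRCh38, so no bin or fragment end below is assigned to a gene.

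Reads on chromosome 9 numbered 1437870 to 8008761 per library. Ends within 5 kb of a viewpoint were left out of all totals, and ends within 500 kb of it are called near-cis here. The WT libraries stood apart from the mutant ones. Near-cis reads made up 81.6 to 89.9% of chromosome 9 reads outside the 5-kb mask in the 24 mutant libraries, against 66.7 to 73.4% in the 6 WT libraries. Near-cis totals ran from 64583 to 2691302 reads, with the lowest of them in the S2 mutant at the promoter, and the interval itself held 1999 to 81125 reads per library. For this reason the folds of the whole interval over WT are set beside those on chromosome 9 totals and those among mutants. Counts of called bins, and the medians of all bins in the S2 and S4 mutants, are also given on chromosome 9 totals. Values of flanks, single bins and parts of the interval are given on near-cis totals alone.

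The share of near-cis reads that fell in the interval differed between genotypes at every viewpoint. On this scale the S4 mutant and the S4-S5 mutant were low at all 3, and the S5 mutant was nearest to WT. On chromosome 9 totals, given below, the S2 mutant was instead nearest to WT at the promoter and at S4. Its ratio to WT there was 0.957 and 0.933, against 1.27 and 1.11 in the S5 mutant. From the promoter, the interval held 3.10 and 3.12% of near-cis reads in the S2 mutant libraries, 2.65 and 2.66% in those of the S4 mutant, 4.07 and 4.02% in those of the S5 mutant and 2.75 and 2.70% in those of the S4-S5 mutant, against 4.08 and 4.10% in WT. The 3 mutants other than S5 lay well below both WT libraries, and the S5 mutant lay just under them. The group means ± SD were 3.11 ± 0.0181, 2.66 ± 0.00774, 4.05 ± 0.0328, 2.73 ± 0.0316 and 4.09 ± 0.0120% in the same order (n = 2 each). By edgeR's quasi-likelihood test on the interval's reads, the log2 fold over WT was -0.62 in the S4 mutant (SE 0.0201, adjusted p = 5.66e-29), -0.59 in the S4-S5 mutant (SE 0.0187, adjusted p = 2.04e-29) and -0.40 in the S2 mutant (SE 0.0260, adjusted p = 2.52e-18). With TMM factors and with DESeq2 the S2 mutant's fold turned positive (0.26 and 0.49), and with DESeq2 that of the S4-S5 mutant was 0.0101. On near-cis totals the S5 mutant's fold was -0.02, with a 95% interval of -0.06 to 0.03 (edgeR adjusted p = 0.458).

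From S2, which lay farthest away, the WT share was the highest of the 15 groups. The interval held 2.71 and 2.66% of near-cis reads in the S2 mutant, 2.81 and 2.77% in those of the S4 mutant, 4.45 and 4.30% in those of the S5 mutant and 2.88 and 2.81% in those of the S4-S5 mutant, against 5.35 and 5.34% in WT. All 8 mutant libraries lay below both WT libraries. The ratio of the mean share to that of WT was 0.501, 0.522 and 0.532 in the S2, S4 and S4-S5 mutants and 0.818 in the S5 mutant. The corresponding edgeR log2 folds, in that order, were -0.996 (SE 0.0289, adjusted p = 3.69e-11), -0.94 (SE 0.0287, adjusted p = 4.73e-10), -0.91 (SE 0.0287, adjusted p = 5.39e-10) and -0.29 (SE 0.0285, adjusted p = 2.66e-06). The libraries of the S4 and S4-S5 mutants overlapped here.

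From S4, the nearest viewpoint, the range between genotypes was narrowest. The interval held 3.26 and 3.19% of near-cis reads in the S2 mutant, 2.99 and 3.02% in those of the S4 mutant, 3.78 and 3.75% in those of the S5 mutant and 3.08 and 3.13% in those of the S4-S5 mutant, against 4.20 and 4.11% in WT. Again all 8 mutant libraries lay below both WT libraries. The edgeR log2 folds over WT were -0.36, -0.47, -0.14 and -0.42 in the same order of mutants (SE 0.0276 to 0.0282, adjusted p from 1.18e-15 to 2.55e-05). With TMM factors and with DESeq2 the S2 mutant's fold here turned positive (0.0926 and 0.23). The 4 folds at a viewpoint share its 2 WT libraries.

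**Figure D1:**
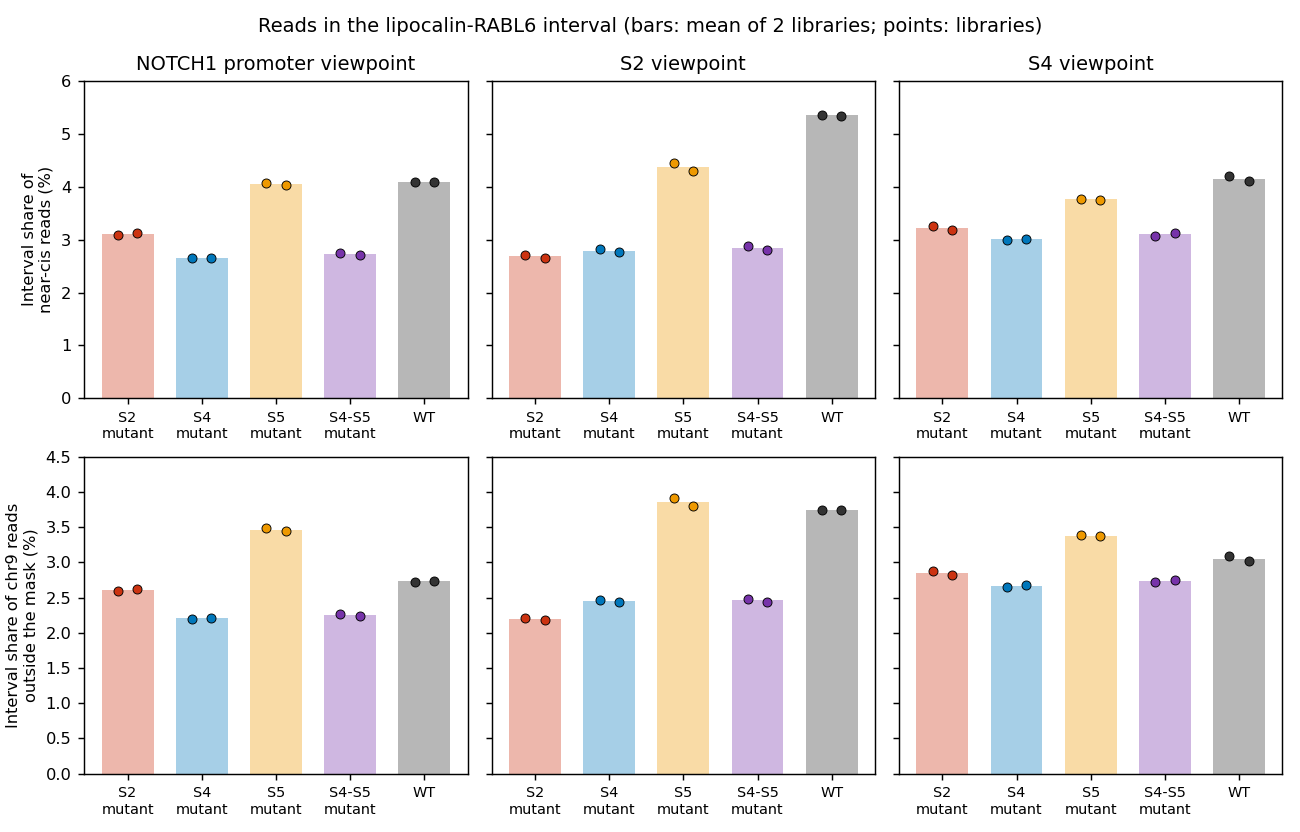
Reads in the interval as a share (%) of near-cis reads (upper row) and of chromosome 9 reads outside the 5-kb mask (lower row), by viewpoint; bars are means of 2 libraries and points are libraries. In the upper row the S5 mutant is the highest mutant and WT is above all mutants at S2 (5.35%) and S4 (4.15%); in the lower row the S5 mutant is above WT at the promoter (3.46 against 2.73%) and at S4 (3.38 against 3.05%).

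Over the 5 genotypes, an exact permutation test of the between-genotype F statistic over all 945 partings of 10 libraries into pairs gave p = 0.00106 at the promoter and at S4, the smallest p this design can give, and p = 0.00212 at S2 (adjusted p = 0.00159, 0.00159 and 0.00212 over 6 shares). Without the WT libraries the exact p was 0.00952 at the promoter and S4 and 0.0190 at S2, and the values were the same without the S2 mutant. An exact permutation of 2 libraries against 2 cannot go under 0.333, so single pairs of genotypes were compared by the edgeR fit alone.

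The position of the S5 mutant relative to WT depended on what the interval was set against. As a share of all chromosome 9 reads outside the mask, the interval held 2.61, 2.20, 3.46 and 2.26% at the promoter in mutants of S2, S4, S5 and S4-S5, against 2.73% in WT. The same shares were 2.20, 2.45, 3.85 and 2.46% at S2, against 3.74% in WT, and 2.84, 2.66, 3.38 and 2.73% at S4, against 3.05% in WT. On this scale the edgeR log2 fold of the S5 mutant was 0.34 at the promoter (adjusted p = 1.36e-18), 0.04 at S2 (adjusted p = 0.149) and 0.15 at S4 (adjusted p = 1.35e-05), so its sign turned, while the folds of the other 3 mutants kept theirs, between -0.77 and -0.06. Set against the average of the S2 and S5 mutants, which keep its site, the S4 mutant was lower at all 3 viewpoints (edgeR log2 fold -0.42 to -0.21). It was not lower than each of them, since at S2 its libraries (2.81 and 2.77% of near-cis reads) lay above those of the S2 mutant (2.71 and 2.66%). The S5 mutant was higher than the average of the S2 and S4 mutants at all 3 (log2 0.49, 0.68 and 0.27 at the promoter, S2 and S4).

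The S4-S5 mutant was lower than the S5 mutant at all 3 viewpoints, and its difference from the S4 mutant did not pass the test on near-cis totals. The S4-S5 mutant over the S4 mutant gave edgeR log2 folds of 0.04 at the promoter (95% interval -0.00337 to 0.08, adjusted p = 0.0780), 0.03 at S2 (-0.04 to 0.09, adjusted p = 0.383) and 0.05 at S4 (-0.01 to 0.10, adjusted p = 0.114). On near-cis totals these intervals allow a difference of up to 0.10 on the log2 scale. Other settings changed the call: the fold passed at the promoter with TMM (0.0899), DESeq2 (0.11) and non-blind ends (0.15), and non-blind ends gave 0.27 at S2 and -0.17 at S4. The S4-S5 mutant over the S5 mutant gave -0.57 at the promoter (SE 0.0199, adjusted p = 2.22e-27), -0.62 at S2 (SE 0.0285, adjusted p = 4.31e-09) and -0.28 at S4 (SE 0.0275, adjusted p = 1.45e-10). Both libraries of the S4-S5 mutant were below both of the S5 mutant at each viewpoint, and the folds on chromosome 9 totals were -0.62, -0.65 and -0.31. Neither of these comparisons uses WT.

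The 50 kb on either side of the interval moved in step with it in some mutants and not in others. The telomeric flank (chr9:139740001-139790000) held 0.409, 0.923, 0.611 and 0.698% of near-cis reads at the promoter in mutants of S2, S4, S5 and S4-S5, against 1.05% in WT. Over WT this was a log2 change of -0.59 in the S4-S5 mutant, as in the interval itself (-0.59), but of -1.37 in the S2 mutant, where the interval's was -0.40. At S4 the flank held 0.372, 0.218, 0.514 and 0.373%, against 0.940% in WT. Relative to WT the flank was thus lower than the interval in the S2, S4-S5 and S5 mutants at S4, by log2 -1.34 against -0.36, -1.33 against -0.42 and -0.87 against -0.14, and in the S4 mutant by -2.11 against -0.47. At S2 the S2 mutant went the other way, with 1.28% in the flank against 0.923% in WT. The centromeric flank (chr9:139575001-139625000), nearer to the viewpoints, held 4.69, 3.23, 4.29 and 4.38% at the promoter, against 4.99% in WT, and in the S4 mutant its log2 change (-0.63) was near that of the interval (-0.62). Per kb, the interval stood below its centromeric flank in all 15 groups and above its telomeric flank in 14 of 15, the exception being the S2 mutant at S2 (log2 -0.14). The log2 ratio of interval to flank differed between genotypes on both sides at all 3 viewpoints (exact permutation p from 0.00106 to 0.00317, adjusted p from 0.00159 to 0.00317 over 9 ratios).

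The interval was also set against a mirror stretch of 115 kb at the same distances on the centromeric side of each viewpoint. At the promoter the log2 ratio of interval to mirror stretch was -0.34, 0.00122, 1.00 and 0.52 in mutants of S2, S4, S5 and S4-S5, against 0.67 in WT. At S2 it was 0.61, 0.04, 1.88 and 0.93, against 1.30 in WT. Per kb, the S4 mutant was thus the genotype closest to balance at both, and the S5 mutant was the most telomeric-sided. The 2 stretches differ in fragment ends, however. The mirror stretch held 202 ends against 314 in the interval at the promoter, and 439 against 346 at S2. The ratio was not corrected for this, so which genotype is closest to balance holds per kb only. At S4 the mirror stretch holds the S2 viewpoint site and took 31.1 to 37.4% of near-cis reads, so the ratio lay between -3.59 and -2.95 in all groups. The ratio differed between genotypes at each viewpoint (exact permutation p = 0.00106, adjusted p = 0.00159).

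Within the interval, contacts were unevenly spread. It was read in 11 full bins of 10 kb, named here by their first base, and a 10-kb bin straddles its centromeric edge. In WT the highest bin was that from 139650001 at the promoter (0.632 and 0.649% of near-cis reads), that from 139630001 at S2 (0.780 and 0.796%) and that from 139640001 at S4 (0.671 and 0.660%). The bin from 139640001 was the highest of the interval in all 5 genotypes at S4, and at S2 also in mutants of S4, S5 and S4-S5.

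**Figure D2:**
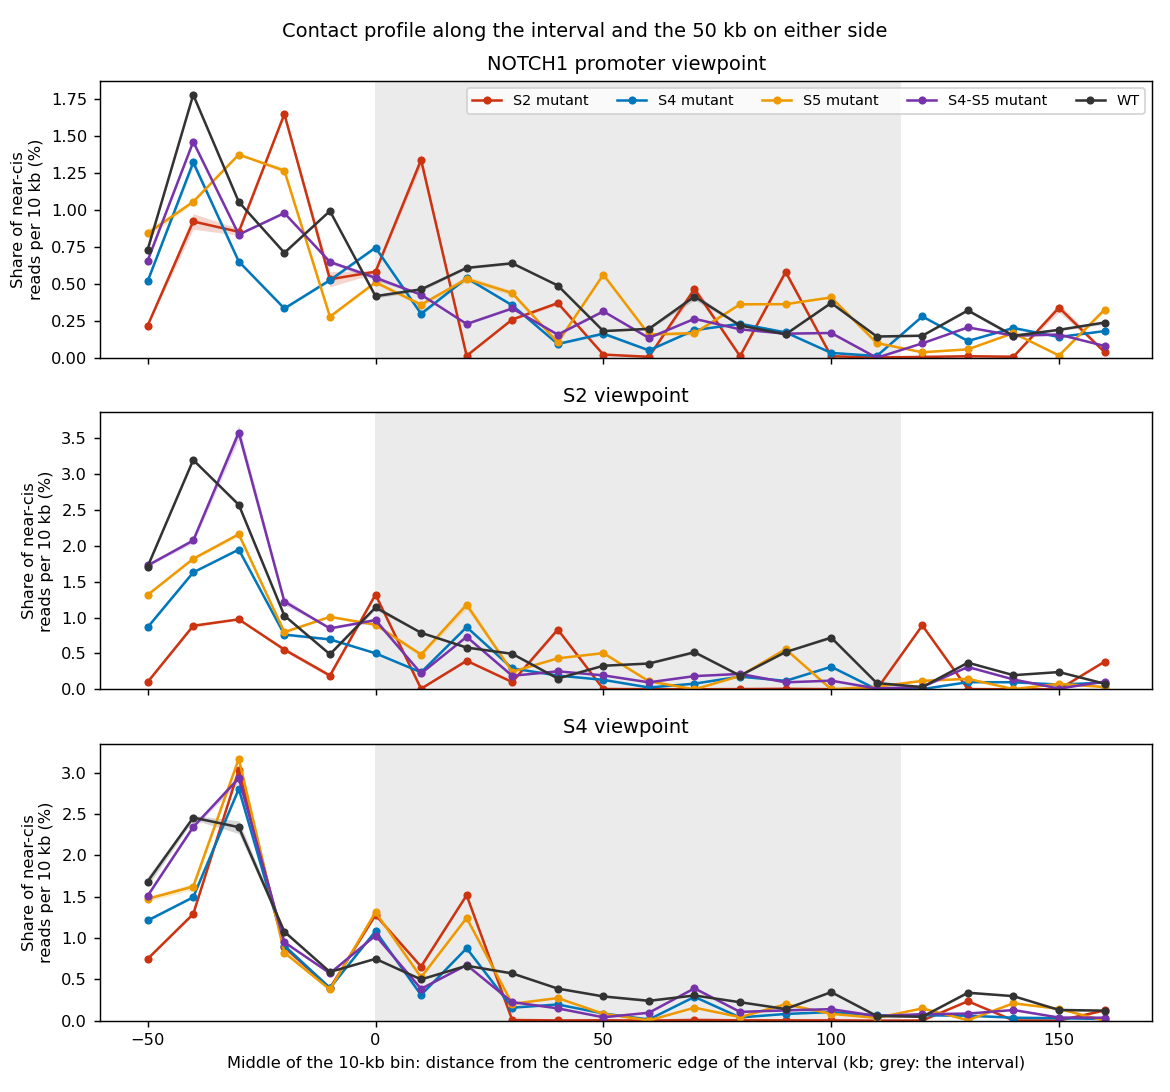
Share of near-cis reads (%) in each 10-kb bin across the interval (grey) and 50 kb on either side, against the distance of the bin's middle from the interval's centromeric edge in kb, one panel per viewpoint; lines join the means of 2 libraries and shading spans the 2 libraries. At S4 the highest full bin inside the interval is the one at 20 kb in all genotypes, and inside the interval the S2 mutant (red) lies near 0 from 30 kb onward there and from 50 kb onward at S2.

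Most bins of the interval differed from WT by edgeR's test (adjusted p under 0.05), as did most near-cis bins, so the counts say little about the interval itself. At the promoter, 8, 8, 7 and 9 of the 11 bins were lower in mutants of S2, S4, S5 and S4-S5, where 66.7, 65.6, 67.7 and 71.9% of all 96 bins were lower, and 3, 0, 4 and 1 were higher, where 28.1, 25, 26 and 15.6% of all were. In either direction the test called 94.8, 90.6, 93.8 and 87.5% of all bins. At S2, 10, 8, 6 and 8 were lower (64.2, 58.9, 61.1 and 55.8% of 95 bins) and 1, 2, 3 and 2 were higher (28.4, 27.4, 31.6 and 28.4%), and 92.6, 86.3, 92.6 and 84.2% of all bins were called. At S4, 9, 8, 8 and 8 were lower (62.9, 58.8, 62.9 and 66% of 97 bins) and 2, 1, 2 and 1 were higher (32, 33, 27.8 and 22.7%), and 94.8, 91.8, 90.7 and 88.7% of all were called. The share of lower bins inside the interval was slightly below the background in the S5 mutant at the promoter (7 of 11 against 67.7%) and at S2 (6 of 11 against 61.1%). On chromosome 9 totals the S5 mutant's share at S2 was instead above it (6 of 11 against 48.4%). In the other comparisons with WT the share on near-cis totals was above the background, most of all in the S2 mutant at S2 (10 of 11 against 64.2%). With only 11 bins, 1 bin moves this share widely, and no difference from the background was tested. On chromosome 9 totals the promoter counts were 3, 4, 5 and 4 higher (34.4, 41.7, 38.5 and 37.5% of all bins) and 7, 7, 3 and 7 lower (61.5, 51, 52.1 and 55.2%) in the same order. At S2 they were 1, 3, 5 and 3 higher (32.6, 38.9, 42.1 and 45.3%) and 10, 8, 6 and 8 lower (61.1, 41.1, 48.4 and 42.1%). At S4 they were 2, 3, 3 and 3 higher (39.2, 43.3, 42.3 and 39.2%) and 9, 8, 8 and 7 lower (57.7, 50.5, 52.6 and 53.6%). The S4-S5 mutant over the S4 mutant had 6, 6 and 7 bins higher at the promoter, S2 and S4 (42.7, 45.3 and 46.4% of all bins) and 3, 3 and 3 lower (46.9, 43.2 and 41.2%, with 89.6, 88.4 and 87.6% called in all). Over the S5 mutant it had 3, 3 and 6 higher (46.9, 46.3 and 43.3%) and 8, 7 and 5 lower (38.5, 43.2 and 45.4%, with 85.4, 89.5 and 88.7% called in all).

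The median log2 fold of the 11 bins in the S2 mutant was -2.96, -5.97 and -5.40 (promoter, S2, S4), where the medians of all bins were -0.93, -1.03 and -0.84. In the S4 mutant the interval's medians were -0.85, -1.31 and -0.98 (all bins -0.43, -0.35 and -0.36). In the S5 mutant they were -0.32, -0.70 and -0.95 (all bins -0.58, -0.38 and -0.46), and in the S4-S5 mutant -0.64, -1.49 and -1.06 (all bins -0.57, -0.25 and -0.43). In the S2 mutant the median of the interval's bins was thus far below that of all bins at every viewpoint. The fold of the interval's summed reads (-0.40, -0.996 and -0.36) is another measure and cannot be ranked against these medians. On near-cis totals the summed share of the whole window is the same in every library by construction. Scaling to chromosome 9 totals moved the medians of all bins to -0.59, -0.81 and -0.57 in the S2 mutant and to -0.11, -0.03 and -0.09 in the S4 mutant.

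**Figure D3:**
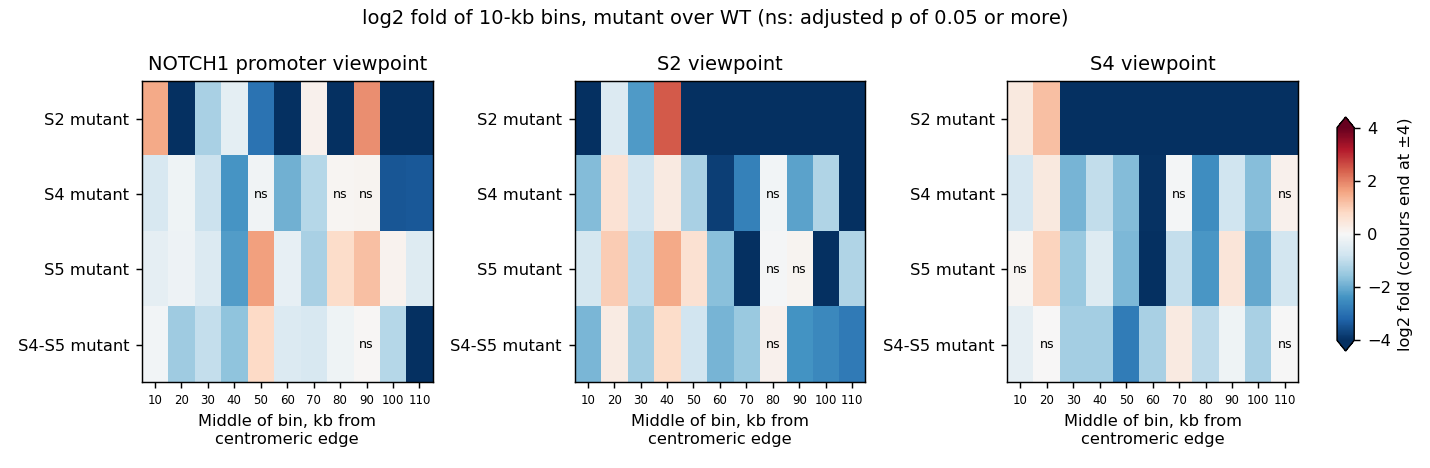
Colour gives the log2 fold of mutant over WT in each of the 11 bins of the interval (x axis, middle of the bin in kb from the centromeric edge; colours end at ±4; ns, adjusted p of 0.05 or more), 1 row per mutant and 1 panel per viewpoint. The S2 mutant row is dark blue from 50 kb onward at S2 and from 30 kb onward at S4, and mixed at the promoter; the other rows hold both reds and blues.

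From the promoter, the largest fall in the S2 mutant was in the bin from 139640001, which had 10 and 10 reads (0.0155 and 0.0145% of near-cis reads) against 1283 and 2156 reads in WT (0.603 and 0.615%), an edgeR log2 fold of -5.34. In the S4 mutant the bin from 139720001 fell most (-3.43), to 0.0346 ± 0.00422% against 0.372 ± 0.00395% in WT (SD, n = 2 each). In the S5 mutant the bin from 139660001 fell most (-2.22) and that from 139670001 next to it rose most (1.63), to 0.564 ± 0.00397% against 0.182 ± 0.00448% in WT. The bin from 139670001 also rose most in the S4-S5 mutant (0.80), and the bin from 139730001 fell most there (-6.35), to 8 and 10 reads against 322 and 489 in WT. The largest rise in the S2 mutant, in the bin from 139710001 (1.87), rested on 1 fragment end with 98.6 and 98.8% of the bin's reads, and on non-blind ends alone it was -4.14. No bin passed as higher in the S4 mutant on near-cis totals.

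From S2, the bin from 139690001 fell most in the S2 mutant (-7.83), with 9 and 23 reads against 2477 and 3527 in WT. The bin from 139720001 fell most in the S5 mutant (-8.60), with 26 and 34 reads against 3694 and 4591 in WT. The bin from 139730001 fell most in the S4 mutant, with 2 and 3 reads against 447 and 575 in WT, a ratio of shares of 0.00131 whose exact counting interval runs from 0.000423 to 0.00306. The same bin fell most in the S4-S5 mutant (-2.83), where 1 end held 98.1 and 99.1% of its reads. The largest rise in mutants of S2, S5 and S4-S5 was that of the bin from 139660001 (2.46, 1.51 and 0.73), to 0.834, 0.432 and 0.252% against 0.152% in WT. In the S2 mutant 1 end carried 63.1 and 60.9% of that bin's reads. The bin from 139640001 rose most in the S4 mutant (0.57), but was -0.26 on non-blind ends alone.

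From S4, the bin from 139640001 rose most in 3 mutants. It held 1.52 and 1.52% of near-cis reads in the S2 mutant, 0.868 and 0.887% in the S4 mutant and 1.25 and 1.24% in the S5 mutant, against 0.671 and 0.660% in WT, with edgeR log2 folds of 1.19, 0.40 and 0.90. In the S4-S5 mutant it held 0.668 and 0.680%, which overlapped WT. On non-blind ends alone these rises turned to -5.38, -0.23 and -0.28, so they rested on blind ends, which are ends of fragments without a site for the second enzyme. The bin from 139680001 fell most in the S2, S4 and S5 mutants (-6.66, -3.95 and -5.68), with 16 and 5, 341 and 332, and 62 and 63 reads, against 2039 and 2545 in WT. The S4-S5 mutant had its largest fall in the bin from 139670001 (-2.81) and its largest rise in that from 139690001 (0.36).

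Splitting the interval at its midpoint, a division made after the profiles had been seen and given without a test, showed the lowest values in the S2 mutant's telomeric part at S2 and S4. From S2, the telomeric 57.5 kb held 172 and 126 reads in the S2 mutant (0.0257 and 0.0170% of near-cis reads), 0.711 and 0.727% in those of the S4 mutant, 0.912 and 0.890% in those of the S5 mutant and 0.679 and 0.713% in those of the S4-S5 mutant, against 2.33 and 2.32% in WT. From S4 it held 144 and 127 reads in the S2 mutant (0.0313 and 0.0299%), 0.601 and 0.596% in those of the S4 mutant, 0.536 and 0.518% in those of the S5 mutant and 0.913 and 0.930% in those of the S4-S5 mutant, against 1.33 and 1.30% in WT. The S2 mutant was far below all other groups at both viewpoints. From the promoter the same part held 1.09 and 1.08% in the S2 mutant, 0.695 and 0.692% in those of the S4 mutant, 1.55 and 1.58% in those of the S5 mutant and 0.937 and 0.924% in those of the S4-S5 mutant, against 1.53 and 1.48% in WT, and the S2 mutant was not the lowest. The fragments of the promoter tables mostly have other coordinates, and whether this matters here was not tested.

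In those telomeric 57.5 kb the S2 mutant still had reads at 46 and 47 of 173 ends at S2 and at 49 and 48 of 173 at S4, against 81 and 79 and 68 and 75 ends in WT. However, only 2 and 1 of these ends at S2, and 1 and 1 at S4, had over 10 reads in the S2 mutant, against 50 and 51 and 50 and 54 in WT. In the centromeric 57.5 kb the S2 mutant's share was 2.66% at S2 and 3.19% at S4, against 3.03 and 2.84% in WT. The S2 mutant's near-cis totals were 668932 and 739507 reads at S2 and 459876 and 424277 at S4, against 499045 and 653924 and 798736 and 1113164 in WT.

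Few fragment ends carried the interval's reads in the S2 mutant. The same was true of its telomeric flank in that mutant, as given at the end. This was not measured over the rest of the near-cis window, so whether it is particular to the interval was not tested. At the promoter, 50% of the interval's reads fell on 3 and 3 ends in the S2 mutant, 17 and 18 in the S4 mutant, 15 and 15 in that of S5 and 29 and 28 in that of S4-S5, against 26 and 27 in WT. At S2 these numbers were 3 and 3, 15 and 16, 8 and 8, and 17 and 18, against 22 and 22 in WT. At S4 they were 2 and 2, 13 and 14, 10 and 9, and 14 and 14, against 28 and 27 in WT. The S2 mutant was lowest at every viewpoint, and WT was highest at S2 and S4. Likewise the 5 most covered ends held 82.3, 85.0 and 93.0% of the interval's reads in the S2 mutant at the promoter, S2 and S4, against 15.2, 18.9 and 14.6% in WT, with the other mutants between 14.1 and 37.9%. With the most covered end of each library left out, the S2 mutant's edgeR log2 fold over WT was -0.68 at the promoter in place of -0.40, -1.39 at S2 in place of -0.996 and -0.94 at S4 in place of -0.36, and the whole-interval calls against WT were the same as before.

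**Figure D4:**
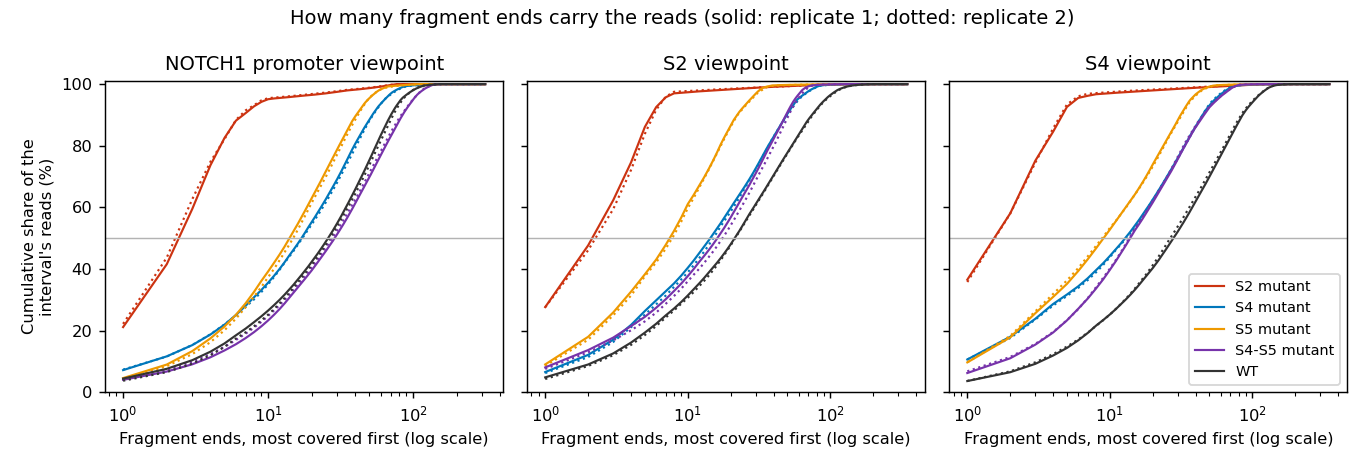
Cumulative share (%) of the interval's reads against the number of fragment ends, most covered first (log scale), per library (solid, replicate 1; dotted, replicate 2) and viewpoint; the grey line marks 50%. The S2 mutant crosses it at 2 to 3 ends, and WT at 22 to 28.

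The most covered end of the interval was a different one in most groups. Over the 15 groups there were 12 such ends, 8 of them non-blind, and in 13 groups the same end ranked first in both libraries. The end at 139643153, of a blind 47-base fragment at chr9:139643111-139643157, was on top in 4 groups: the S2, S4 and S4-S5 mutants at S4 and the S4 mutant at the promoter. At S4 it held 1.16% of near-cis reads (mean of 2 libraries) in the S2 mutant, 0.318% in the S4 mutant, 0.107% in that of S5 and 0.201% in that of S4-S5, against 0.0681% in WT. In the S2 mutant it made up 36.1% of the interval's reads. The WT top end at the promoter, at 139696483, held 0.408% of near-cis reads in the S2 mutant, against 0.165% in WT. At S2 and S4 the top ends of WT were almost unread in the mutants. Each top end was picked for its reads in its own group, so lower reads in other groups follow in part from that choice. The WT top end at S2, at 139721235, had 1279 and 1486 reads in WT and at most 8 in any mutant library. The WT top end at S4, at 139633472, had 1204 and 1657 reads in WT and at most 6 in any mutant library. The top end of the S5 mutant at S2, at 139671281, had 6653 and 5819 reads in that mutant, 675 and 835 in the S4 mutant and 18 and 16 in WT.

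Replicate libraries were far more alike, end by end, than libraries of different genotypes. Over the interval's ends, the Pearson correlation of log2(reads + 1) ran from 0.884 to 0.992 between the 2 libraries of a group and from 0.191 to 0.604 between genotypes at a viewpoint, given as a description since ends are not independent and share their libraries' depth. Of the 314, 346 and 347 ends at the promoter, S2 and S4, 8, 69 and 58 had reads in both libraries of all 5 genotypes, and 87, 132 and 130 had none in any of the 10 libraries.

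The number of ends with a read was compared after thinning every library to the lowest near-cis depth of its viewpoint (64583, 499045 and 424277 reads). At the promoter 23.6, 31.4, 27.6 and 43.0% of the interval's ends then had a read in mutants of S2, S4, S5 and S4-S5, against 40.6% in WT. At S2 the shares were 32.1, 34.8, 26.8 and 30.3%, against 55.9% in WT, and at S4 they were 35.5, 32.2, 27.5 and 29.3%, against 50.9% in WT. Before thinning they were 24.0, 41.2, 35.03 and 49.2% at the promoter, against 48.4% in WT, 35.7, 43.9, 37.7 and 39.5% at S2, against 56.4% in WT, and 35.9, 44.7, 36.7 and 38.5% at S4, against 54.2% in WT. At equal near-cis totals the mutants thus had fewer read ends than WT at S2 and S4, but so did the rest of the near-cis window, which had 33.3 to 41.6% in the mutants at these viewpoints, against 57.0 and 55.1% in WT. The interval was below the rest in all 30 libraries. Counted in covered ends instead of reads, the edgeR log2 folds of the interval over WT lay between -0.33 and 0.09. Of these 12 folds 0 passed at an adjusted p under 0.05 and 1 had an unadjusted p under 0.05 (the S2 mutant at the promoter), and no other tool was run on them.

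**Figure D5:**
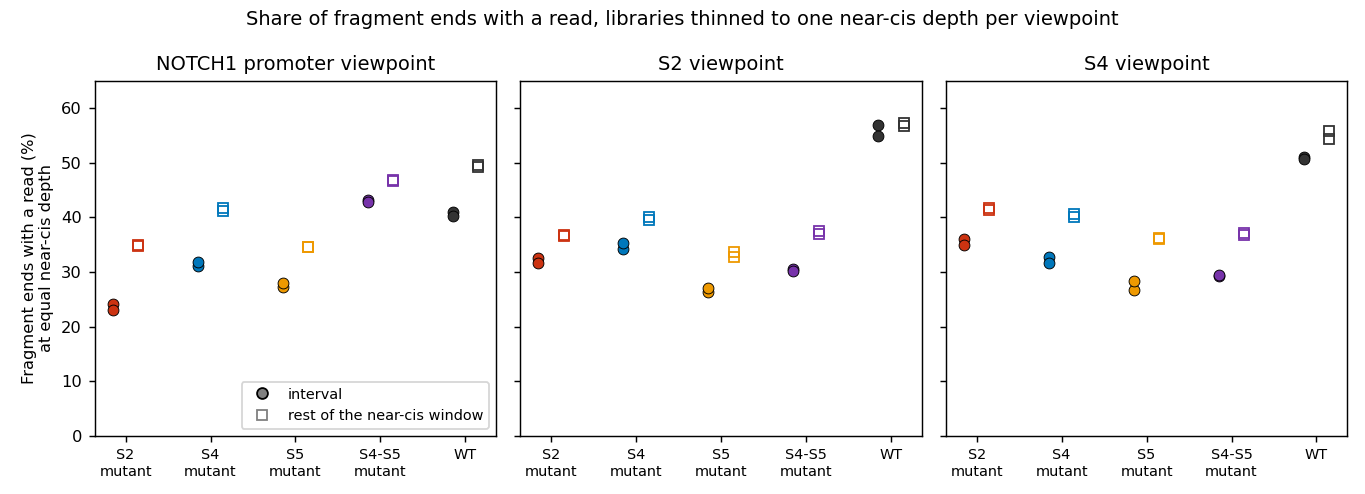
Fragment ends with at least 1 read (%) after thinning each library to the lowest near-cis depth of its viewpoint, for the interval (filled circles) and the rest of the near-cis window (open squares), 1 point per library. At S2 and S4 both shares are lower in all mutants than in WT, and the interval lies below the rest in every group.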

How the data were processed

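The authors deposited, per the file headers, 1 table of chromosome 9 fragment ends per library with whole read counts, not normalized. The deposited scaled and smoothed signal columns of those tables were not used. Per the labels' protocols, chromatin was cut with DpnII, then with NlaIII or CviQI, and which of these served which viewpoint is not stated. deepTools and hg19 appear in the submitters' processing notes without a role. Aligner, read filters and counter: not given in the sources used here. Reads carry no molecular identifier, so counting intervals cover counting error only.

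Counts were summed over the interval and over 10-kb bins, with ends within 5 kb of the viewpoint left out and near-cis totals as library sizes. Bins with a mean under 10 reads were dropped, and the interval was tested as 1 feature beside the bins outside it. All 10 libraries of a viewpoint entered 1 edgeR quasi-likelihood fit (edgeR 4.0.16, R 4.3.3), with Benjamini-Hochberg adjustment over all features of a contrast and a threshold of 0.05. The scripts were tested on simulated data. The members and lists were chosen with earlier results of these data known. Named bins were the highest in WT and, per mutant, the largest rise and fall past the threshold with both mutant libraries beyond both WT libraries, and named ends the most covered of each group. Exceptions are the bins and ends set beside these for comparison.

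Alternatives were chromosome 9 totals, TMM factors, DESeq2 1.42.0, a 20-kb mask, a 1-Mb window, 5-kb bins, no low-count filter, covered ends, non-blind ends, ends capped at the 99th percentile, mutants as the reference, a replicate block and leaving out each replicate. The mutant reference was the average, on the log2 scale, of the mutants that keep the site or sites in question. The flank and mirror comparisons, leaving out the top end, the S2 mutant or WT, and the midpoint split were chosen after seeing the data. Promoter sequences are from RefSeq (GRCh38.p14).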

Additional observations from a re-analysis of the deposited data

How the results depend on the processing

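In the S4 mutant the interval's log2 fold over WT stayed negative under all read-based alternatives, and the S4-S5 mutant's did so except with DESeq2 at the promoter (0.0101) and against the mutant reference at S2 (0.0852). The S5 mutant's turned positive on chromosome 9 totals (0.34, 0.0406 and 0.15 at the promoter, S2 and S4), with TMM factors (0.38, 0.14 and 0.12), with DESeq2 (0.67, 0.12 and 0.0866) and against the mutant reference (0.49, 0.68 and 0.27), and at the promoter also with a 20-kb mask (0.13) and a 1-Mb window (0.0724). With non-blind ends it was -0.0647 and passed at the promoter, and with capped ends it was -0.0468 and did not pass at S4. The S2 mutant turned positive with TMM (0.26 at the promoter, 0.0926 at S4) and DESeq2 (0.49 and 0.23), and against the mutant reference it was 0.0123 at the promoter and -0.0213 at S4, both short of the threshold. Against that reference the S4-S5 mutant was -0.0564 at S4, short of the threshold, while its value at S2 passed.

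The S4-S5 over S4 fold passed the threshold at the promoter with DESeq2 (0.11), TMM (0.0899), capped ends (0.0481), non-blind ends (0.15), a 1-Mb window (0.0492), the top end left out (0.0834) and S4-S5 mutant replicate 2 left out (range over replicates left out 0.0255 to 0.0492). At S2 it passed with non-blind ends (0.27), and at S4 with TMM (0.11) and without the top end (0.11), and it was -0.17 with non-blind ends.

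In covered ends no fold passed. Those of the S2, S4 and S4-S5 mutants over WT were -0.33, -0.0410 and 0.0917 at the promoter, -0.11, -0.0717 and -0.12 at S2 and -0.12, -0.00694 and -0.10 at S4, those of the S5 mutant were -0.14 at S2 and -0.15 at S4, and S4-S5 over S5 turned to 0.15, 0.0202 and 0.0497. The highest over lowest genotype share at S4 was then 1.11 (exact permutation p = 0.255). Of the 6 to 8 bins left, edgeR called 0 in all 18 comparisons, and 0 at an unadjusted p under 0.05. In 5-kb bins, over mutants of S2, S4, S5 and S4-S5, S4-S5 over S4 and S4-S5 over S5, the calls were 21, 21, 21, 19, 21 and 21 at the promoter, 22, 21, 19, 18, 19 and 20 at S2 and 22, 21, 19, 20, 16 and 21 at S4, of 23, 22 and 22 bins tested at the 3 viewpoints. Of all near-cis 5-kb bins, 82.3 to 96.8% were called. With TMM 7 bins were called in the S5 mutant at the promoter (5 higher, 2 lower), where 89.6% of all bins were called, and with DESeq2 11 were (9 higher, 2 lower), where 91.7% were. Causes of these changes were not tested.

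Replicate numbers paired the libraries little on the median, though not in every pair of genotypes. Deviations of same-numbered libraries correlated between genotypes at a median r of 0.0337, 0.0782 and 0.0547 at the 3 viewpoints. Over the 10 pairs of genotypes r ran from -0.0943 to 0.404 at the promoter, from -0.284 to 0.299 at S2 and from -0.0391 to 0.530 at S4. With a replicate block the folds of the S2 mutant were -0.40, -0.996 and -0.36, and no call for the interval changed.

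Depth limits the S2 mutant at the promoter most (1999 and 2148 reads in the interval), and bins with a few reads there have folds known only to counting error.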

Other observations

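The telomeric flank of the interval, chr9:139740001-139790000, was itself carried by few ends in the S2 mutant. At S2 it held 8617 and 9469 reads in the S2 mutant against 4607 and 6040 in WT, but only 3 and 3 ends had over 10 reads in the S2 mutant, against 25 and 25 in WT. The most covered end held 70.0 and 68.5% of the flank's reads in the S2 mutant, against 13.4 and 13.3% in WT. At S4 the most covered end of the flank held 65.4 and 60.4% in the S2 mutant, against 9.30 and 9.86% in WT.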
